A study of Mus musculus with 8 samples.

Results

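The CD28 family and the checkpoint receptors are surface proteins through which T cells read costimulatory and inhibitory signals. The set described here was taken by gene symbol and holds 10 of the 55487 genes in the deposited tables: Cd28, Ctla4, Icos, Pdcd1, Btla, Lag3, Havcr2, Tigit, Cd96 and Cd200. Each symbol matched a single gene in both tables. The transcripts were measured in regulatory T cells (Tregs) from the spleens of C57BL/6 mice, sorted on GFP and profiled by RNA sequencing of SMART-Seq v4 libraries. There were 4 groups of 2 libraries: SRC-3KO without a tumor, control without a tumor, SRC-3KO with a tumor, and control with a tumor. SRC-3 is the nuclear receptor coactivator encoded by Ncoa3, and the comparison asked how Tregs lacking it differ from control Tregs. The titles of both SRC-3KO no-tumor libraries carry the word Tam1, which is not explained. Control replicate 1 without a tumor is titled WT and its source label names no GFP, while control replicate 2 and both tumor controls are titled as Foxp3-Cre. Not given in the sources used here: whether the SRC-3KO mice carry the same Cre, what drives the GFP, the deleted exons, the tumor, the age of the mice and any pooling of animals. The replicates are not stated to be separate animals, so the tests measure the spread between these libraries, which may be technical.

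CD28 delivers the costimulatory signal that T cells need beside the antigen receptor, and Tregs depend on it for their development and maintenance. CTLA-4 binds the same ligands, CD80 and CD86, more tightly than CD28 does, and Tregs use it to remove those ligands from antigen-presenting cells. ICOS is an inducible costimulator of effector Tregs. The proteins PD-1 (Pdcd1), BTLA, LAG-3, TIM-3 (Havcr2) and TIGIT are inhibitory receptors, CD96 competes with TIGIT and the activating receptor CD226 for CD155, and CD200 is a surface ligand that restrains myeloid cells through CD200R.

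All 4 no-tumor libraries were available as read counts, with totals between 24159217 and 31075452, and all 4 tumor libraries as FPKM, fragments normalized to transcript length and library total, with an unknown depth. Changes are log2 ratios of SRC-3KO over control with a standard error (SE), and a call is an adjusted p under 0.05 over all genes tested. Ncoa3 itself stood at 39.6 and 26.7 CPM (reads normalized to the library total, scaled by trimmed mean) in SRC-3KO and at 132 and 54.1 CPM in control without a tumor. With a tumor it stood at 47.5 and 27.7 FPKM in SRC-3KO and at 37.7 and 45.4 FPKM in control, and SRC-3KO replicate 1 was above both controls. The log2 change was -1.48 (SE 0.83, edgeR adjusted p = 0.910) without a tumor and -0.18 (SE 0.30, limma adjusted p = 0.770) with one, and without the deleted exons these values do not test the labels. All 8 markers of the T cell list and all 8 of the Treg list reached 1 CPM or 1 FPKM in every library. Control replicate 1 without a tumor stood apart, with rank correlations of 0.689 to 0.705 with the other no-tumor libraries, which correlated with each other at 0.918 to 0.961. Foxp3, which defines Tregs, had 21.1 and 10.2 CPM in the SRC-3KO libraries, against 231 and 20.5 CPM in the controls, the higher value being that library. Control replicate 2 with a tumor carried a summed 3578 FPKM over 7 neutrophil markers, against at most 3.27 FPKM in the other 3 tumor libraries. Its 9 myeloid markers summed to 1434 FPKM, against 7.83 to 10.5 FPKM in the other tumor libraries.

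The 10 genes lie on 4 chromosomes of the mouse genome (mm10 positions, GENCODE vM21). Cd28 (chromosome 1, 60716800 to 60773359, plus strand), Ctla4 (60887000 to 60915832, plus strand) and Icos (60977927 to 61000320, plus strand) follow each other within 283.5 kb that holds 0 other protein-coding genes. Pdcd1 lies on the same chromosome (94038305 to 94052553, minus strand). Tigit (43648867 to 43664146, minus strand), Btla (45224315 to 45257670, plus strand), Cd200 (45382135 to 45409053, minus strand) and Cd96 (46035657 to 46120251, minus strand) lie on chromosome 16. Lag3 is on chromosome 6 (124904361 to 124911705, minus strand) and Havcr2 on chromosome 11 (46454935 to 46481255, plus strand). The annotated span of Ctla4 contains the pseudogene Rpl18-ps1 on the same strand. Its own values were 28.6 and 35.2 FPKM in SRC-3KO and 54.1 and 37.4 FPKM in control with a tumor, the opposite order to Ctla4.

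Ordered by level per length, Ctla4 and Tigit led in the tumor libraries of both genotypes. In SRC-3KO they averaged 260 and 256.4 FPKM, with ranges that overlapped each other, and they lay at the 98.8th to 99.1st percentile of the genes listed above 0. In control they averaged 144 and 143 FPKM, also overlapping each other, at the 96.7th to 97.2nd percentile. Cd200 was the third in SRC-3KO, at 209 FPKM, and overlapped its neighbours Tigit and Icos, whereas in control it was the fifth, at 82.2 FPKM, below Icos and overlapping Pdcd1. Havcr2 was the lowest in both, at 6.62 and 9.52 FPKM. Without a tumor the level used was CPM per kb of the longest annotated transcript. There the SRC-3KO order began with Cd200 at 251 CPM per kb, above Icos at 148, Ctla4 at 144 and Tigit at 129 CPM per kb, of which only Icos and Ctla4 overlapped. Lag3 and Havcr2 closed it at 2.76 and 0.279 CPM per kb. In the no-tumor controls every member overlapped the next in order, and the 2 libraries lay far apart. Levels were not compared between the tables, which were normalized separately.

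**Figure D1:**
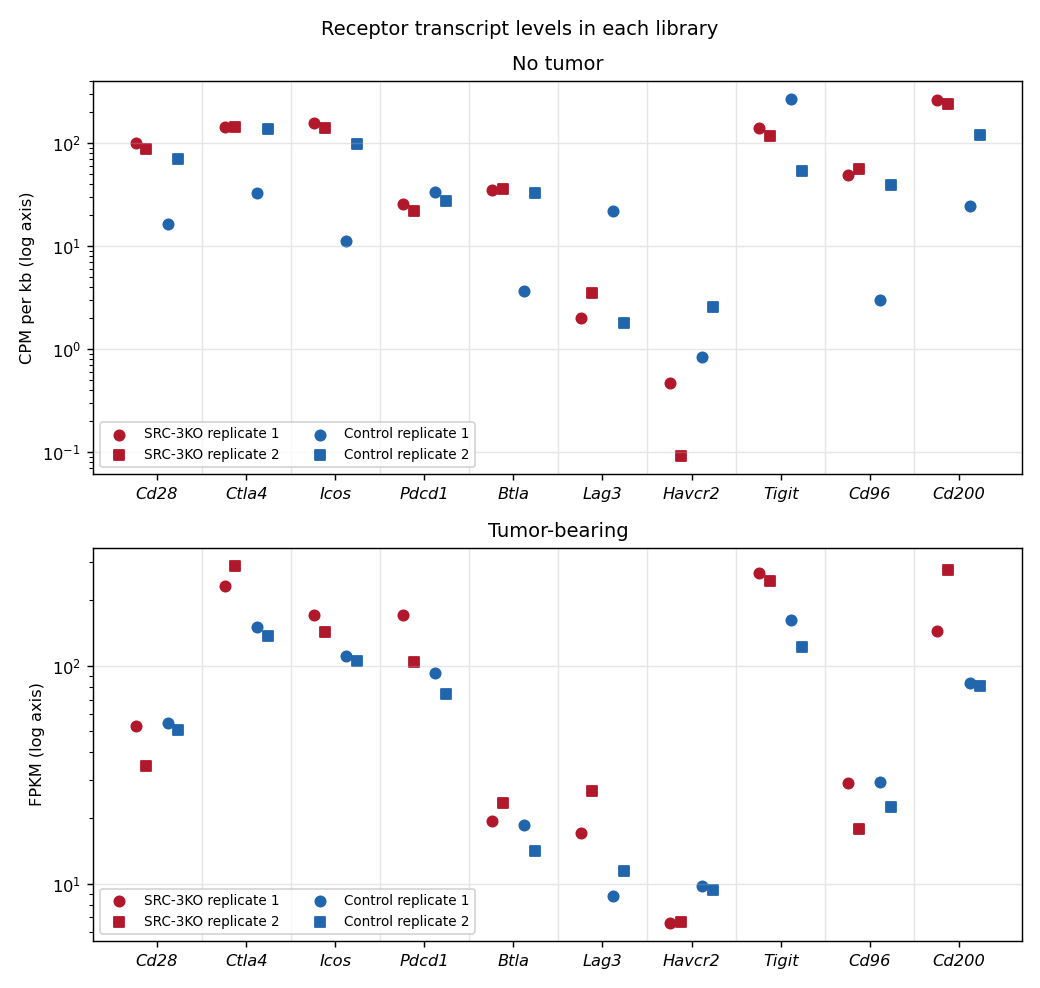
Level of each member transcript in every library, on log axes. Values are CPM per kb without a tumor (top) and FPKM with a tumor (bottom). Red marks SRC-3KO, blue control, circles replicate 1 and squares replicate 2. With a tumor, both SRC-3KO libraries lie above both controls for Ctla4, Icos, Pdcd1, Btla, Lag3, Tigit and Cd200, and below them for Havcr2. Without a tumor, control replicate 1 lies far from control replicate 2 for most members.

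In tumor-bearing mice, 7 of the 10 members had both SRC-3KO values above both control values, and 1, Havcr2, had both below. Over all 12859 genes tested, 27.5% stood higher and 24.9% lower in this sense. The members' median log2 change was 0.60, against -0.02 over all genes tested. All 10 passed the filters on low values in both tables, and none passed limma over all genes, where 0.0156% of genes were called higher and 0.0933% lower. At an unadjusted p under 0.05 there were 5 members, Ctla4, Icos, Lag3, Tigit and Cd200, against 16.5% of all genes. In the same libraries the Treg markers also stood higher in SRC-3KO, 7 of 8 in both libraries with summed levels of 2064 and 1988 FPKM against 1735 and 1261 FPKM in control. The B cell markers summed to 12.8 and 10.3 FPKM in SRC-3KO and to 37.0 and 29.5 FPKM in control. All 4 tested B cell markers lay lower in both SRC-3KO libraries, and Cd79a was called (-2.96, limma adjusted p = 0.0410). The list of 8 CD8 T cell and NK cell markers summed to 59.0 and 38.2 FPKM in SRC-3KO and to 161 and 115 FPKM in control. Of its 4 tested genes Prf1, Nkg7 and Gzma lay lower in both SRC-3KO libraries and Cd8b1 higher, and none was called. The plasma cell list summed to 242 and 215 FPKM in SRC-3KO and to 279 and 347 FPKM in control. Of its 3 tested genes, Jchain (-5.39, limma adjusted p = 0.0204) and Mzb1 (-3.91, adjusted p = 0.0296) were lower in SRC-3KO. The third, Xbp1, overlapped (-0.07, adjusted p = 0.882). The part of these in the receptor values was not tested, and in sorted bulk cells fewer cells of a type and less RNA per cell cannot be told apart. Scaling each library to the 4 genes of the CD3 complex left the same 7 members higher and Havcr2 lower. The summed levels of these 4 genes were 1231 and 1149 FPKM in SRC-3KO and 1472 and 980.2 FPKM in control. No share over all genes is given under that scaling, and the 27.5% and 24.9% above are for FPKM as deposited.

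Among the CD28 family, the inhibitory members and Icos stood higher in SRC-3KO and Cd28 did not. Ctla4 stood at 231 and 288 FPKM in SRC-3KO and at 151 and 136 FPKM in control. The groups did not overlap, and the log2 change was 0.84 (SE 0.22, 95% interval 0.29 to 1.40, adjusted p = 0.203). It passed the test without control replicate 2 (0.77, adjusted p = 0.0462), as did 20.1% of all genes, a fit in which the lone control is assumed to vary like the SRC-3KO pair. Icos stood at 171 and 143 FPKM in SRC-3KO and at 111 and 105 FPKM in control, again apart, with a change of 0.53 (SE 0.20, adjusted p = 0.287). Pdcd1 stood at 170 and 104 FPKM in SRC-3KO and at 92.5 and 74.4 FPKM in control. The SRC-3KO libraries differed from each other by more than the controls did, and the change was 0.68 (SE 0.30, 95% interval -0.07 to 1.42, adjusted p = 0.334). It was 0.32 without SRC-3KO replicate 1 and 1.03 without SRC-3KO replicate 2. Btla, the receptor for HVEM, stood at 19.3 and 23.4 FPKM in SRC-3KO and at 18.6 and 14.1 FPKM in control. Its groups were separated by less than 1 FPKM and its change was 0.37 (SE 0.23, adjusted p = 0.448), with 0.56 and 0.18 when control replicates 1 and 2 were left out in turn. Cd28 stood at 52.9 and 34.5 FPKM in SRC-3KO and at 54.4 and 50.5 FPKM in control. Its groups overlapped, and the change of -0.29 (SE 0.25) had a 95% interval of -0.93 to 0.35. By median-of-ratios scaling both SRC-3KO values lay below both controls, and leaving out SRC-3KO replicate 2, the lowest library, gave Cd28 a change of 0.014.

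Of the receptors that bind CD155, Tigit stood higher in both SRC-3KO libraries and Cd96 did not. Tigit stood at 267 and 246 FPKM in SRC-3KO and at 163 and 122 FPKM in control. The groups did not overlap, and the log2 change was 0.86 (SE 0.23, 95% interval 0.27 to 1.44, adjusted p = 0.210). It passed the test without control replicate 1 (1.06, adjusted p = 0.0291) and also when control replicate 2 was left out instead (0.65, adjusted p = 0.0333), each with a lone control, in fits that called 3.68% and 20.1% of all genes. Cd96 stood at 28.9 and 17.9 FPKM in SRC-3KO and at 29.1 and 22.5 FPKM in control, and its groups overlapped. Its change was -0.16 (SE 0.29, 95% interval -0.89 to 0.56). The sign was not stable, at 0.17 without SRC-3KO replicate 2, 0.014 without control replicate 1 and 0.071 with each library rescaled to the same sum.

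Lag3 and Havcr2, inhibitory receptors outside the CD28 family, had changes of opposite sign. Lag3, which binds MHC class II, stood at 17.0 and 26.6 FPKM in SRC-3KO and at 8.77 and 11.4 FPKM in control. The SRC-3KO mean was 2.16 times that of control, with a log2 change of 1.02 (SE 0.28, adjusted p = 0.214). Havcr2 stood at 6.59 and 6.65 FPKM in SRC-3KO and at 9.71 and 9.32 FPKM in control. It was close to equal within each genotype, and the change was -0.46 (SE 0.20, 95% interval -0.97 to 0.04, adjusted p = 0.331). Macrophages also express Havcr2. The myeloid markers summed to 10.5 and 7.83 FPKM in SRC-3KO and to 8.28 and 1434 FPKM in control, and their part in the Havcr2 values was not tested. Cd200 had the highest log2 change of the 10. It stood at 144 and 275 FPKM in SRC-3KO and at 83.4 and 81.1 FPKM in control, a change of 1.26 (SE 0.34, 95% interval 0.41 to 2.11, adjusted p = 0.208). The SRC-3KO libraries differed more from each other than replicate 1 did from the controls, and the change was 1.73 without SRC-3KO replicate 1 and 0.80 without SRC-3KO replicate 2.

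**Figure D2:**
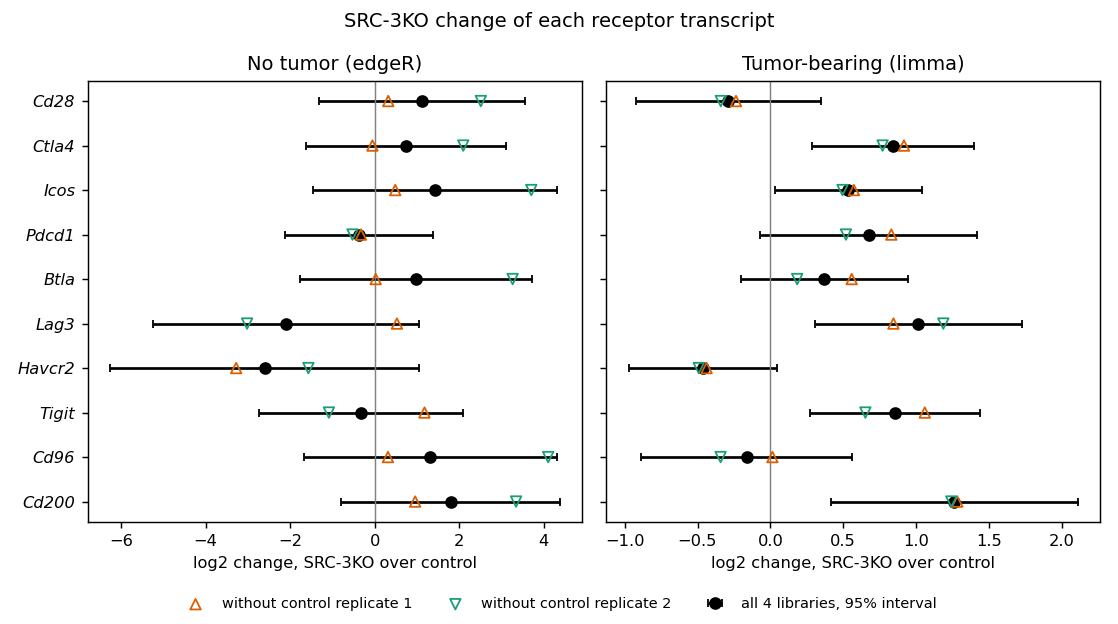
Log2 change of each member transcript in SRC-3KO over control, without a tumor (left, edgeR) and with a tumor (right, limma, on log2(FPKM + 1)). The horizontal scales are separate. Filled points with bars are all 4 libraries with their 95% interval, and open triangles are the fits that leave out control replicate 1 or control replicate 2. The intervals of Ctla4, Icos, Lag3, Tigit and Cd200 with a tumor lie above 0, before adjustment over genes. Without a tumor all 10 intervals include 0, and the triangles lie far apart for all but Pdcd1.

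Promoter sequences are shown for Ctla4, Tigit, Pdcd1 and Cd200, which stood higher in the tumor state, and for Havcr2, which stood lower. These sequences let the stretches before their starts be compared. They are the 250 bases before the RefSeq start, 5′ to 3′ on the gene's strand, from RefSeq on GRCm38.p6, where 7 of the 10 members matched. Btla was matched and also stood higher with a tumor, but its sequence is not printed. The RefSeq start of Ctla4 lies inside the GENCODE span given above. Capitals mark letters of AGGTCA (the half-site that nuclear receptors bind), TGTTTAC (forkhead factors), GGAAA (the core read by NFAT factors) and TGANTCA (AP-1), on either strand. Where a match lies on the other strand the reverse complement is in capitals, so GGAAA appears as TTTCC.
Ctla4, chr1:60908775-60909024, plus strand: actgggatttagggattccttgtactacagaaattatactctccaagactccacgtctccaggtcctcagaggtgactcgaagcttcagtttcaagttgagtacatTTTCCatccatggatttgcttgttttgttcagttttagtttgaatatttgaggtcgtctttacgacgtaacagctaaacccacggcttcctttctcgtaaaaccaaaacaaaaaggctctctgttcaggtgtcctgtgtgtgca
Tigit, chr16:43664185-43664434, minus strand: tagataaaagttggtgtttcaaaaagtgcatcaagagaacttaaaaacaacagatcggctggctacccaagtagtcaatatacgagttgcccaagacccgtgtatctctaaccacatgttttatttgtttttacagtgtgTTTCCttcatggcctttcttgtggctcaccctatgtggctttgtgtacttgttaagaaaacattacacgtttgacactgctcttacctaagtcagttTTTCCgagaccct
Pdcd1, chr1:94052554-94052803, minus strand: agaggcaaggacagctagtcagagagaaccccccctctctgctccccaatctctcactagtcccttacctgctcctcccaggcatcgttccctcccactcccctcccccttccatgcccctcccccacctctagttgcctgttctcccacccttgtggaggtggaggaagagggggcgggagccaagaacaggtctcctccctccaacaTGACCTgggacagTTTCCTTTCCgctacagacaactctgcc
Cd200, chr16:45409054-45409303, minus strand: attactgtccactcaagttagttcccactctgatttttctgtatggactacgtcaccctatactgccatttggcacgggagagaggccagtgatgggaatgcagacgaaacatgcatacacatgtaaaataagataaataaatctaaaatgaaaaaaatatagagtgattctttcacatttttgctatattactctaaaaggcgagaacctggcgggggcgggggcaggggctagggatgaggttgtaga
Havcr2, chr11:46454681-46454930, plus strand: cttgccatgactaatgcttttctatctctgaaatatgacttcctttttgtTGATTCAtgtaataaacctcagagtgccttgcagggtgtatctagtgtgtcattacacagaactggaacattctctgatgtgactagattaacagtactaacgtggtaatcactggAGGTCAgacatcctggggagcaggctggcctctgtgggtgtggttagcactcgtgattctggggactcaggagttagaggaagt

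Counted back from the start, GGAAA was matched once in the Ctla4 window, 144 to 140 bases before the start, 2 times in that of Tigit, from 110 and from 13 bases before, and 2 times in that of Pdcd1, from 28 and from 23 bases before. The window of Cd96, whose groups overlapped with a tumor, held the most, 4, and those of Havcr2, Btla and Cd200 held none. GGAAA was present in 55.6% of 32851 promoters of this length. AGGTCA was matched once for Pdcd1, from 41 bases before the start, and once for Havcr2, from 84 bases before, against 14% of all promoters. The Havcr2 window also held TGANTCA, from 200 bases before the start, present in 6.75% of promoters. TGTTTAC, present in 3.17%, was matched in 0 of the 7 windows, and the Cd200 and Btla windows held none of the 4 motifs. None of the 4 motifs overlapped another in these windows, and a match is a description of letters, not of binding.

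Without a tumor, Cd28, Icos, Cd96 and Cd200 had both SRC-3KO values above both control values under every scaling tried. Ctla4 did so by trimmed-mean scaling but not by median-of-ratios or CD3 complex scaling, and Btla by all but CD3 complex scaling. Pdcd1 and Havcr2 had both values below, under every scaling tried. By trimmed mean that is 6 and 2 of the 10, against 23.8% of the 14860 genes tested that stood higher and 16.9% that stood lower. The members' median log2 change was 0.86, against -0.02 over all genes tested. The edgeR quasi-likelihood test called 0% of genes in either direction and 0 members, with 0 members and 3.18% of all genes at an unadjusted p under 0.05, and DESeq2 and limma-voom called 0 members too. Control replicate 1 decided the size of most changes, and whatever Tam1 stands for cannot be told apart from genotype here. Without that library 8 members lay above the remaining control and 2, Pdcd1 and Havcr2, below it. Ctla4 was among the 8, although its refitted change was -0.055. The 23.8% and 16.9% of all genes are for 2 controls and are no background for counts against a lone control, for which no share is given. Without control replicate 2, where the lone control is replicate 1, 6 lay above and 4 below, and edgeR called 8 of the 10 (adjusted p between 0.00161 and 0.0158), all but Pdcd1 and Havcr2, where 43.8% of all genes were called.

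The costimulatory pair stood higher in SRC-3KO. Cd28 had 437 and 385 CPM in the SRC-3KO libraries, against 71.2 and 307 CPM in the controls. Its log2 change was 1.12 (SE 0.996, adjusted p = 0.910), and it was 0.32 when control replicate 1 was left out and 2.51 when control replicate 2 was. Icos had 507 and 453 CPM in the SRC-3KO libraries, against 36.4 and 320 CPM in the controls, with a change of 1.43 (SE 1.18, adjusted p = 0.910), of 0.48 without control replicate 1 and of 3.70 without control replicate 2. Both SRC-3KO libraries lay close together, and above each control. Ctla4 had 279 and 276 CPM in the SRC-3KO libraries, against 64.1 and 268 CPM in the controls. The change of 0.74 (SE 0.97, adjusted p = 0.910) was 0.017 with the trend over GC content and length removed and turned to -0.055 without control replicate 1, so that its level was almost the same as in the Foxp3-Cre control, and it was 2.09 without control replicate 2.

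Btla and Cd96 followed the same pattern at lower levels. Btla had 116 and 117 CPM in the SRC-3KO libraries, against 12.0 and 107 CPM in the controls, a change of 0.97 (SE 1.12) that came to 0.02 and 3.26 when control replicates 1 and 2 were left out in turn. Cd96 had 109 and 122 CPM in the SRC-3KO libraries, against 6.60 and 86.2 CPM in the controls, a change of 1.31 (SE 1.22) that came to 0.31 and 4.10. Cd200 had 614 and 563 CPM in the SRC-3KO libraries, against 57.2 and 283 CPM in the controls. Of the members higher in both libraries it kept the highest change against the Foxp3-Cre control alone, at 0.96, against 1.79 (SE 1.05, adjusted p = 0.910) with all libraries and 3.34 without control replicate 2.

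The remaining inhibitory receptors did not share that order. Tigit had 128.2 and 109 CPM in the SRC-3KO libraries, against 248 and 48.9 CPM in the controls, so the controls lay on either side of SRC-3KO. Its change was -0.33 (SE 0.99, adjusted p = 0.939), 1.18 without control replicate 1 and -1.08 without control replicate 2. Lag3 had 3.99 and 7.07 CPM in the SRC-3KO libraries, against 43.9 and 3.55 CPM in the controls. Its change of -2.10 (SE 1.29, adjusted p = 0.910) became 0.52 when control replicate 1 was left out and -3.02 when control replicate 2 was, and it was -3.67 by CD3 complex scaling and -0.12 after removal of the trend over GC content and length. Pdcd1 had 49.1 and 42.0 CPM in the SRC-3KO libraries, against 64.8 and 53.3 CPM in the controls. Its change was -0.37 (SE 0.72, adjusted p = 0.922) and lay between -0.53 and -0.24 when any library was left out. It was -1.51 by CD3 complex scaling and -0.0033 with the trend over GC content and length removed. Havcr2 was near the floor, with 35 and 7 reads in SRC-3KO and 57 and 183 reads in control, and its change was -2.60 (SE 1.49, adjusted p = 0.910). Leaving out control replicate 1 gave -3.28 and leaving out control replicate 2 gave -1.57.

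**Figure D3:**
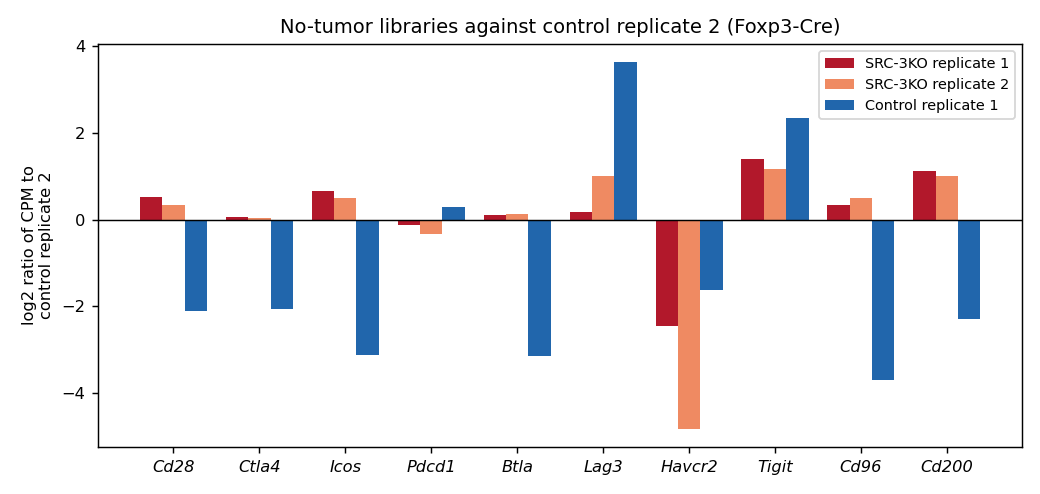
Log2 ratio of each member's CPM in the other 3 no-tumor libraries to that in control replicate 2, the Foxp3-Cre control. Red and orange bars are SRC-3KO replicates 1 and 2 and blue bars are control replicate 1. Control replicate 1 lies below control replicate 2 for Cd28, Ctla4, Icos, Btla, Havcr2, Cd96 and Cd200 and above it for Pdcd1, Lag3 and Tigit.

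The split between the no-tumor controls ran through the T cell markers as well. Control replicate 1 held 0.232 times the Cd28, 0.114 times the Icos, 0.112 times the Btla and 0.0765 times the Cd96 of control replicate 2, and 12.4 times the Lag3 and 5.07 times the Tigit. Of the CD3 complex, Cd3d stood at 98.1 CPM in control replicate 1 and at 1034 CPM in control replicate 2, and Cd3g at 57.8 and 887 CPM, while Cd3e stood at 1603 and 582 CPM. The CD8 and NK cell list summed to 556 and 411 CPM in SRC-3KO and to 1374 CPM in control replicate 1 and 123 CPM in control replicate 2, most of it the cytotoxic gene Nkg7 (1324 and 94.5 CPM in these controls). Cd8b1 went the other way, with 7.11 CPM in control replicate 1 and 22.8 CPM in control replicate 2. The B cell list summed to 66.7 and 25.2 CPM in SRC-3KO and to 15.2 and 14.5 CPM in control, and the myeloid list to 27.4 and 88.7 CPM in the SRC-3KO libraries, against 11.8 and 53.4 CPM in the controls. The neutrophil list summed to 183 CPM in control replicate 2 and to at most 0.04 CPM in the other 3 libraries. The part of these in the receptor values was not tested.

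Set side by side with all libraries, the states differed most for Lag3, Havcr2, Cd96 and Cd28, but no difference between states passed its test. The SRC-3KO change with a tumor minus that without one, from limma and limma-voom, was 2.24 for Lag3 (SE 1.41), 2.33 for Havcr2 (SE 1.56), -2.43 for Cd96 (SE 1.32) and -1.76 for Cd28 (SE 0.99), each with an adjusted p of 0.571. None of the 10 members and 0% of the 11674 genes tested in both states were called in either direction, the median over all genes was -0.27, and 0 members and 4.02% of genes had an unadjusted p under 0.05. Without control replicate 2 of the no-tumor group 8 members were called, with adjusted p between 0.0214 and 0.0422, where 48% of all genes were called, and without control replicate 1 of that group 0 were called, with a smallest adjusted p of 0.306. The ranking of members depended on that replicate 1. Leaving it out gave differences of 0.53 for Lag3, -0.47 for Cd96, -0.60 for Cd28 and 3.31 for Havcr2. Those of Pdcd1 and Ctla4 were then 1.01 and 0.90. Cd200 stood higher in SRC-3KO in both states against each control, as did Icos under every scaling tried, while Btla and Ctla4 did so without a tumor only under some scalings, and Havcr2 stood lower in both. Pdcd1 was the only member that lay wholly below the controls without a tumor and wholly above them with one, a difference of 1.05 (SE 0.76, 95% interval -0.87 to 2.96, adjusted p = 0.572).

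The balance between receptors was described as the ratio of their levels per length in each library, without a test. Ctla4 stood at 4.37 and 8.36 times Cd28 in SRC-3KO and at 2.78 and 2.70 times Cd28 in control with a tumor. Without a tumor it stood at 1.44 and 1.62 times Cd28 in SRC-3KO and at 2.03 and 1.97 times in control, the reverse order, and both controls lay close together although their levels did not. Icos stood at 3.23 and 4.15 times Cd28 in SRC-3KO and at 2.03 and 2.07 times in control with a tumor, and at 1.56 and 1.58 times in SRC-3KO and 0.686 and 1.40 times in control without one. Cd226, the activating receptor that shares CD155 with TIGIT and CD96, stood at 7.83 and 10.8 FPKM in SRC-3KO and at 6.76 and 4.42 FPKM in control with a tumor. The ratio of Tigit to Cd226 there was 34.1 and 22.8 in SRC-3KO and 24.1 and 27.7 in control, so the groups overlapped although both genes stood higher in SRC-3KO. The ratio of Cd96 to Cd226 was 3.69 and 1.66 in SRC-3KO and 4.31 and 5.10 in control. Without a tumor that ratio was 5.19 and 8.54 in SRC-3KO and 3.19 and 2.72 in control.

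**Figure D4:**
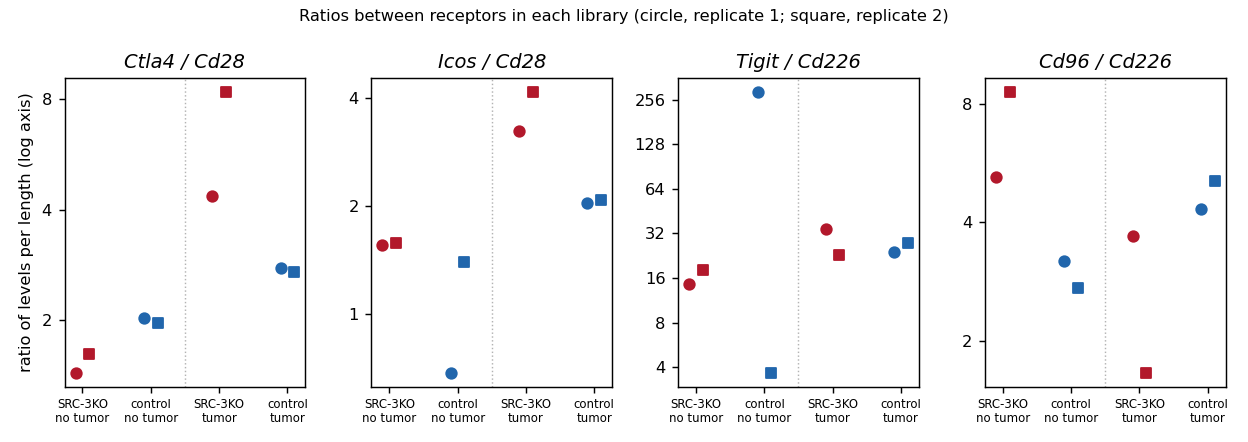
Ratio of the levels per length of Ctla4 and Icos to Cd28 and of Tigit and Cd96 to Cd226 in each library, on log axes, for SRC-3KO and control without a tumor (left of the dotted line) and with one (right of it). Circles are replicate 1 and squares replicate 2. The Ctla4 to Cd28 ratio of SRC-3KO lies below control without a tumor and above it with one, and the Cd96 to Cd226 ratio the other way round.

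Of the 14 genes for ligands and partners of these receptors, 8 passed the filter with a tumor and 10 without. With a tumor 1 stood higher and 1 lower in both SRC-3KO libraries, against 27.5% and 24.9% of all genes, the median was -0.34 and 0 were called. The count higher was 5 without control replicate 2, and the count lower was 5 without control replicate 1. For counts with a library left out or under another scaling, here and in the lists below, no share over all genes is given. The percentages printed are for all libraries, with FPKM as deposited or trimmed-mean CPM, and are no background for such counts. Lgals9, which encodes the TIM-3 ligand galectin-9, stood at 62.7 and 63.2 FPKM in SRC-3KO and at 97.2 and 98.8 FPKM in control, a change of -0.63 (SE 0.17, adjusted p = 0.214). Cd200r1, the receptor for CD200, stood at 16.6 and 10.4 FPKM in SRC-3KO and at 8.32 and 8.07 FPKM in control (0.62, SE 0.27, adjusted p = 0.334). The PD-1 ligand gene Cd274 stood at 9.79 and 10.3 FPKM in SRC-3KO and at 9.61 and 72.4 FPKM in control, the higher control being the library with myeloid transcripts. Without a tumor 5 stood higher and 1 lower, against 23.8% and 16.9% of all genes, with a median of 0.84. Cd80 had 11.8 and 5.59 CPM in the SRC-3KO libraries, against 0.675 and 0.191 CPM in the controls (4.31, SE 1.34), Lgals9 had 308 and 281 CPM against 84.5 and 201 CPM (1.04, SE 0.86), and Cd200r1 had 11.5 and 15.97 CPM against 2.11 and 10.4 CPM (1.14, SE 1.06), each with an edgeR adjusted p of 0.910.

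Other receptors of the T cell surface had 3 of 10 tested genes higher in both SRC-3KO libraries with a tumor and 0 lower, near the 27.5% of all genes that stood higher, with a median of -0.05 and 0 called. The count lower was 4 and 5 without SRC-3KO replicate 1 and control replicate 2 in turn. Klrg1, an inhibitory lectin-like receptor, stood at 18.7 and 28.3 FPKM in SRC-3KO and at 10.8 and 8.16 FPKM in control (1.204, SE 0.28, adjusted p = 0.169). Cd101 stood at 4.21 and 3.998 FPKM against 2.57 and 2.36 FPKM (0.56, SE 0.23, adjusted p = 0.306), and Cd226 had a change of 0.65 (SE 0.29, adjusted p = 0.334). Without a tumor 5 of 10 stood higher and 0 lower, against 23.8% and 16.9% of all genes, with a median of 1.03. The counts were 8 and 1 without control replicate 1, and 7 and 2 without control replicate 2. The genes named by p were Cd101 (1.81, SE 1.17), Cd27 (1.35, SE 0.96) and Pecam1 (1.18, SE 0.89), each with an adjusted p of 0.910.

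Of the signalling genes downstream of these receptors 23 of 24 were tested with a tumor. In both SRC-3KO libraries 11 stood higher and 2 lower, against 27.5% and 24.9% of all genes, with a median of 0.13 and 0 called. By CD3 complex scaling 7 stood higher and 1 lower, for which no share over all genes is given. Ptpn6, which encodes the phosphatase SHP-1, stood at 112 and 142 FPKM in SRC-3KO and at 208 and 267 FPKM in control (-0.90, SE 0.24, adjusted p = 0.209). B cells and myeloid cells also express it. The B cell marker sum was higher in both controls and the myeloid sum in control replicate 2, and their part in the Ptpn6 values was not tested. Bag6, which encodes a chaperone that binds TIM-3, stood at 11.7 and 17.5 FPKM against 6.46 and 8.21 FPKM (0.89, SE 0.27, adjusted p = 0.233). Without a tumor 2 of 24 stood higher and 5 lower, against 23.8% and 16.9% of all genes, with a median of -0.40. They were 14 higher and 7 lower without control replicate 1, and 4 higher and 19 lower without control replicate 2, counts to which these percentages do not apply. With all 4 no-tumor libraries Bag6 had a change of -1.82 (SE 0.91), opposite in sign to that with a tumor, and Pik3r1, a regulatory subunit of PI3 kinase, one of 1.49 (SE 0.74), each with an adjusted p of 0.910.

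Transcription factors known to act on the checkpoint receptor genes or on effector Tregs were listed, and 16 were tested with a tumor. In both SRC-3KO libraries 13 of them stood higher and 0 lower, against 27.5% and 24.9% of all genes. The median was 0.51 and 0 were called. This list was chosen with earlier results of these data known, so the comparison with all genes is not independent of them. Under the other scalings 13 to 15 stood higher and 0 lower, counts to which these percentages do not apply. Foxp3 and Ikzf2 are on the Treg marker list too, whose summed level was also higher in both SRC-3KO libraries, and the part of that in these values was not tested. Nfatc2, an NFAT factor, stood at 20.4 and 18.8 FPKM in SRC-3KO and at 4.8 and 8.0 FPKM in control (1.51, SE 0.27, adjusted p = 0.144). Ikzf2, the Treg factor Helios, stood at 56.6 and 43.0 FPKM against 14.8 and 22.9 FPKM (1.37, SE 0.28, adjusted p = 0.156). Prdm1, which encodes Blimp-1, stood at 20.6 and 18.4 FPKM against 9.75 and 10.5 FPKM (0.88, SE 0.19, adjusted p = 0.164). Without a tumor the same list had 1 of 17 higher and 5 lower, against 23.8% and 16.9% of all genes, with a median of -1.63 and 0 called. It had 7 higher and 6 lower without control replicate 1, and 2 higher and 14 lower without control replicate 2. With all libraries Tbx21 (-2.26, SE 0.96), Foxp3 (-3.01, SE 1.30) and Tcf7 (-1.98, SE 0.96) had the smallest p, each with an adjusted p of 0.910. Control replicate 1 held the highest value of all 3, at 207 CPM of Tbx21, 231 CPM of Foxp3 and 282 CPM of Tcf7, against 55.7, 20.5 and 72.1 CPM in control replicate 2.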

How the data were processed

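Per the submitters' processing notes, reads were processed with FastQC, Trim Galore, STAR, featureCounts and edgeR on mm10. Tool versions, annotation release and strand setting: not given in the sources used here. Read counts per gene, raw, are what the authors deposited for the no-tumor libraries and FPKM, per the file headers from StringTie, for the tumor libraries. Positions, lengths and GC content came from GENCODE vM21, with 55227 of 55487 gene IDs matched.

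Counts were tested with edgeR 4.0.16 in R 4.3.3 (filterByExpr, TMM factors of 0.916 to 1.09, quasi-likelihood F test, SE as the log2 change over the root of F). FPKM were tested with limma 3.58.1 with an intensity trend on log2(FPKM + 1), for genes at 1 FPKM or more in at least 2 libraries, a scale that understates changes of low genes. CPM used the same TMM factors. The difference between states set limma against limma-voom changes and was read against t with the smaller degrees of freedom. All p-values were adjusted by Benjamini-Hochberg over all genes, with a threshold of 0.05. The scripts were tested on simulated data with less spread between replicates than the no-tumor libraries, whose common edgeR dispersion was 0.79. How the tests perform at that spread was not simulated.

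The members, gene lists, tests and the rule for naming list genes (up to 3 tested genes with the smallest p per list and state) were chosen with earlier results of these data known. A gene that the rule names is not reported here. The no-tumor result was recomputed with DESeq2 1.42.0 and limma-voom, under other scalings, without a filter and without the trend over GC content and length. The tumor result was recomputed under other scalings, another pseudocount, without a filter, without that trend and with a replicate block. The difference between states was recomputed with other degrees of freedom and another tumor scaling. All of them were also recomputed leaving out each library. SRC-3KO replicates and control replicates without a tumor differed beyond counting noise.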

Additional observations from a re-analysis of the deposited data

Results flagged for a closer look

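Pdcd1 lay below both controls in both SRC-3KO libraries without a tumor and above both with one, which marked its change as different between the states. The difference of the log2 changes, with a tumor minus without, was 1.05 (SE 0.76, limma and limma-voom, adjusted p = 0.572), and it lay between 0.69 and 1.40 when any library was left out. The change without a tumor, -0.37, was -0.0033 after removal of the trend over GC content and length.

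The ratio of Ctla4 to Cd28 lay below the controls in SRC-3KO without a tumor and above them with one. Its log2 change, with a tumor minus without, was 1.53, and this difference was not tested.

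The ratio of Cd96 to Cd226 lay above the controls in SRC-3KO without a tumor and below them with one. Its log2 change, with a tumor minus without, was -2.10, and this difference was not tested.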

How the results depend on the processing

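Of 100 alternative values without a tumor, 110 with one and 100 of the difference, 88, 103 and 87 kept the direction and the side of the threshold. With a library left out the changes without a tumor ranged between -0.055 and 2.09 for Ctla4, -3.02 and 0.52 for Lag3, and -1.08 and 1.18 for Tigit, which limma-voom gave as 0.10. Apart from that limma-voom value, those that turned direction came without control replicate 1. Removing the trend over GC content and length gave 0.017 for Ctla4, -0.12 for Lag3, -0.0033 for Pdcd1 and -1.14 for Tigit without a tumor, and CD3 complex scaling gave -3.67 for Lag3, -1.51 for Pdcd1 and -1.78 for Tigit. With a tumor they ranged between -0.59 and 0.014 for Cd28 and between -0.50 and 0.17 for Cd96, which was 0.071 with values rescaled to the same sum. The difference between states ranged between -1.25 and 0.90 for Ctla4, -3.16 and 0.058 for Icos, -2.89 and 0.35 for Btla, -0.31 and 1.95 for Tigit, and -2.07 and 0.31 for Cd200, turning direction without control replicate 1 of the no-tumor group. The cause was not tested.

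Genes called without a tumor numbered 0 with edgeR, 87 with DESeq2 and 70 without a filter, and 0 to 7434 with a library left out. With a tumor 14 were called, 4 with values rescaled to the same sum, 2 with CD3 complex scaling, 7 with a pseudocount of 0.1, 1 without a filter, 72 with a replicate block and 31 to 2510 with a library left out. The highest counts came without control replicate 2 of each state. Across genes, the difference between the tumor replicates of SRC-3KO and that of control had a correlation of 0.0357. With a single pair per genotype this cannot decide whether same-numbered libraries share more than a number. The limma fit with a replicate block called none of the members (smallest adjusted p 0.144). For the difference between states the count was 0, and 0 to 5718 with a library left out. Members lower in both SRC-3KO libraries numbered 2 without a tumor, against 16.9% of all genes, and 2 to 4 with a library left out. With a tumor they numbered 1, against 24.9% of all genes, 2 with median-of-ratios scaling and 1 to 3 with a library left out. The percentages are no background for the counts under another scaling or with a library left out, for which no share is given. Without a tumor 6 members stood higher, a list that lost Ctla4 by median-of-ratios scaling and both Ctla4 and Btla by CD3 complex scaling. Median-of-ratios moved the median of all genes to -0.15 without a tumor and CD3 complex scaling to -1.10, and rescaling to the same sum to 0.21 with one. With 2 libraries a group and an unknown depth of the tumor libraries, small changes could not be resolved.

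The counts of the gene lists under other scalings and with a library left out were added after seeing the data. For counts of genes higher or lower in SRC-3KO with a library left out or under another scaling, no share over all genes is given.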
